A study of Saccharomyces cerevisiae with 35 samples.

Results

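Expression levels of the NaCl-sensitive yeast strains NCYC3290 and YPS128 were compared at 3 h in 0.7 M NaCl. The libraries were chosen by their labels as the 3 replicates of NCYC3290 and the 3 replicates of YPS128 at 3 h, which is 6 of the 35 RNA-seq libraries of the series. The series measured 4 diploid strains of Saccharomyces cerevisiae before NaCl and at 30 min and 3 h, to ask how their responses to salt differ. NCYC3290 is a West African strain, YPS128 a North American oak isolate, and the others are the vineyard strain BC187 and the laboratory strain BY4743. The labels name no plasmid, deletion or agent other than NaCl for either strain, and all cultures grew in rich medium (YPD) at log phase before NaCl was added. Both groups had the same salt dose and time, so the values are levels in salt and not responses to it. The unstressed libraries of the same cultures (3 of each strain) were used to see which differences were already there. Each strain is a single isolate, and the strains differ at many loci as well as in growth in salt, and these cannot be told apart.

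High NaCl is a stress of water loss and of sodium toxicity. Yeast senses the loss of water through the HOG mitogen-activated protein kinase pathway, which raises glycerol production so that the cell regains volume. Sodium is pumped out by the Ena P-type ATPases and by the Nha1 sodium/proton antiporter, which depends on the proton gradient made by the plasma membrane ATPase Pma1. The environmental stress response accompanies this: chaperone, trehalose and defence genes rise while ribosomal protein and ribosome biogenesis genes fall, and both partly recover once cells acclimate.

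The NCYC3290 libraries held 4228921 to 5866906 counts and the YPS128 libraries 4159553 to 4805400, so that 3 counts, taken here as the floor of detection, were 0.511 to 0.709 CPM (counts relative to the library total) in NCYC3290 and 0.624 to 0.721 CPM in YPS128. Log2 CPM of replicates correlated across genes at r = 0.983 to 0.991 within a strain and 0.928 to 0.945 between the strains. Levels below are CPM after scaling of the libraries by the trimmed mean of M-values (TMM), in the order of replicates 1, 2 and 3. Differences are log2 of NCYC3290 over YPS128 with their standard error (SE) from edgeR's quasi-likelihood model with the replicate number as a block, and adjusted p-values are by Benjamini-Hochberg over all genes tested, called below 0.05. The levels are shares of a library, so fewer cells expressing a gene and less RNA per cell cannot be told apart.

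Of 5895 genes tested, 2203 (37.4%) differed in level, 1083 (18.4%) higher and 1120 (19%) lower in NCYC3290. Most differences were small: the median absolute log2 difference was 0.52 among the called genes, and 84.7% of them lay below 1. An absolute log2 difference of at least 1 was seen for 162 higher and 176 lower genes. The sign was the same in all 3 replicate pairs for 2160 of the called genes, but calling with the replicate block favours such genes, so this is not separate support. Without the replicate block 948 genes were called, and without replicate 3 of YPS128, a library that the study's own table leaves out, 1690 of the 2203 calls remained. Counts in gene lists are read below against these shares. Many named genes were picked for large called differences, so a lack of overlap between the strains describes them and is no further evidence. How many of all tested genes have such separate ranges is not given. The plot of difference against level shows that genes with extreme differences were mostly at low levels, with exceptions such as CSS1 and the mitochondrial AI1 and AI2.

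**Figure D1:**
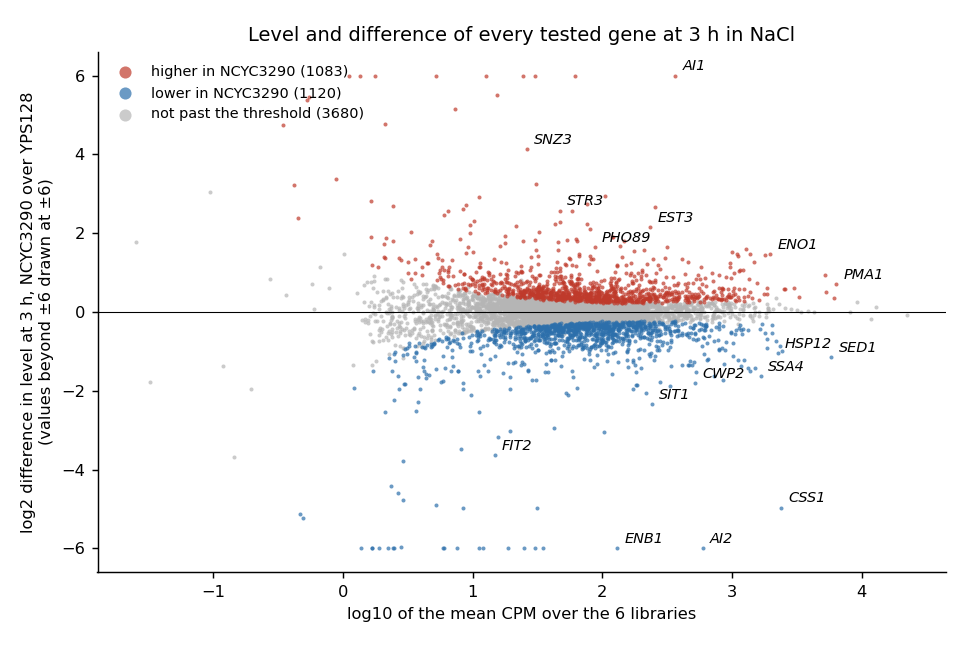
Log2 difference in level at 3 h in NaCl (NCYC3290 over YPS128, from the fit, drawn at ±6 where larger) against log10 of the mean CPM over the 6 libraries, 1 point per gene tested with counts in these libraries. Red genes were higher in NCYC3290 (1083), blue genes lower (1120) and grey genes not past the threshold, and the cloud of called genes is spread about evenly on both sides of 0.

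Chaperone transcripts were less abundant in NCYC3290. Of 25 chaperone and hydrophilin genes tested, 18 were lower in NCYC3290 and 0 higher, with a median log2 difference of -0.92, against -0.001 over all genes. The medians of the replicate pairs were -0.91, -0.63 and -1.05. The Hsp70, Hsp90 and Hsp104 chaperones and their partners made up most of this (14 of 16 lower), and the small heat shock proteins and hydrophilins had 4 of 9 lower. The summed level of the list was 10380, 11050 and 11930 CPM in NCYC3290, against 21890, 18390 and 27310 CPM in YPS128. In BC187 at 3 h it was 13350 to 18110 CPM and in BY4743 17690 to 19990 CPM, so that NCYC3290 had the lowest sums of the 4 strains.

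HSP42 (YDR171W, chromosome IV, 806621 to 807748) encodes a small heat shock protein that gathers misfolded proteins into deposits. The 250 bases before its coding start are shown because HSP42 had the most negative difference of the list and they hold the core of a heat shock element, the sequence bound by Hsf1. The letters are of the S288c reference genome (R64), + strand, chrIV:806371-806620, and not of the strains studied, with the core GAANNTTC in capitals.
HSP42: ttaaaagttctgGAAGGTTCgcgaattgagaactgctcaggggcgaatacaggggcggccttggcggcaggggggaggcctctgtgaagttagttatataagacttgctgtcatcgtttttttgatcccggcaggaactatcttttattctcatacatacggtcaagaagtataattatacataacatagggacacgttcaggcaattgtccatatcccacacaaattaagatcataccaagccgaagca
This core, searched on both strands, was found before 8 of the 25 chaperone genes tested (32%), and before 10% of 5689 promoters of the same length. The stress response element AGGGG bound by Msn2 and Msn4, of which the HSP42 window also holds copies that do not overlap the capitals, was before 11 of the 25 (44%) and before 19.1% of all. Among the 18 called chaperone genes, 6 had the heat shock core and 8 had AGGGG. Whether these sites, or those of the lists below, go with the differences between the strains was not tested.

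HSP42 had 295, 293 and 599 CPM in NCYC3290, against 1068, 899.9 and 1946 CPM in YPS128, a log2 difference of -1.73 (SE 0.11, adjusted p = 1.3e-12). The stress-induced Hsp70 gene SSA4 (chromosome V, 364589 to 366517) had 718, 668 and 1005 CPM in NCYC3290, against 2576, 1684 and 3378 CPM in YPS128 (log2 difference -1.64, SE 0.12, adjusted p = 8.2e-11). The Hsp90 gene HSP82 had 409, 455 and 588 CPM in NCYC3290, against 1149, 888 and 1702 CPM in YPS128 (-1.33, SE 0.11, adjusted p = 2.5e-10). In all 3 genes every NCYC3290 library lay below every YPS128 library, and replicate 3 was the highest of both strains. The disaggregase HSP104 had 576, 545 and 783 CPM in NCYC3290 and 1265, 1041 and 1870 CPM in YPS128, also without overlap (log2 difference -1.10). HSP12, which encodes an abundant membrane-bound hydrophilin, had 1727, 1223 and 1485 CPM in NCYC3290, against 2876, 3144 and 3071 CPM in YPS128 (-1.05, SE 0.14, adjusted p = 3.3e-06). Its ranges were separate as well. The Hsp90 co-chaperone STI1 (-1.06), the constitutive Hsp90 gene HSC82 (-0.92) and the endoplasmic reticulum Hsp70 gene KAR2 (-0.77) were also lower. SSA1 (-1.37) and SSA2 (-0.87) were lower as well, but only 54.2% and 54% of the 100-base windows of these near-identical Hsp70 genes are unique in the reference, so reads may be exchanged between them. HSP30, a plasma membrane stress protein, was not called at 10.4, 11.6 and 10.5 CPM in NCYC3290 and 13.2, 13.4 and 15.1 CPM in YPS128. Of the 25 genes, 18 were lower without replicate 3 of YPS128 and 15 without the replicate block.

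**Figure D2:**
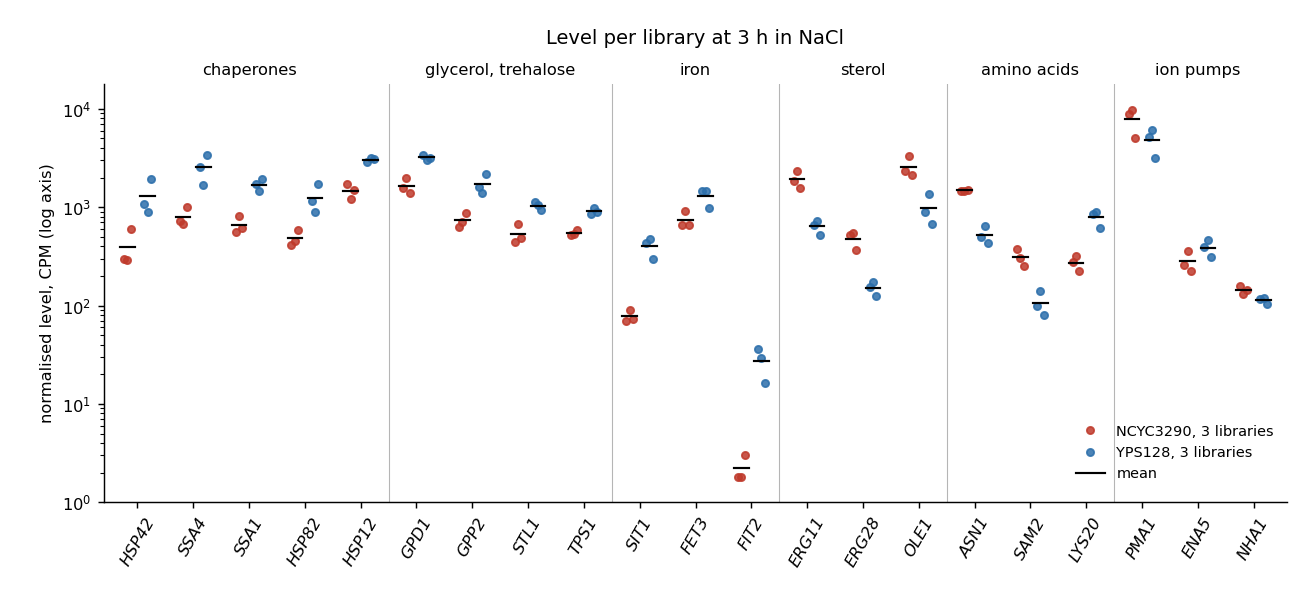
Normalised level (CPM, log axis) of 21 named genes in each library at 3 h in NaCl, NCYC3290 on the left of each pair and YPS128 on the right, with a line at the mean of the 3 libraries. The chaperone, glycerol, trehalose and iron genes drawn were lower in NCYC3290 and the sterol genes higher, while ENA5 overlapped between the strains.

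The stress-regulated glycerol genes GPD1, GPP2 and STL1 and most trehalose genes were lower in NCYC3290. GPD1 (chromosome IV, 411825 to 413000), which encodes the stress-regulated glycerol 3-phosphate dehydrogenase, had 1568, 1971 and 1386 CPM in NCYC3290, against 3429, 3041 and 3139 CPM in YPS128 (log2 difference -0.98, SE 0.11, adjusted p = 5.1e-08). GPP2, which encodes the phosphatase that completes glycerol synthesis, had 630, 703 and 879 CPM in NCYC3290, against 1600, 1390 and 2191 CPM in YPS128 (-1.22, SE 0.11, adjusted p = 5e-10). STL1, the gene of the glycerol/proton symporter, had 447, 682 and 487 CPM in NCYC3290, against 1125, 1059 and 932 CPM in YPS128 (-0.95, SE 0.13, adjusted p = 1.8e-06). None of the 3 genes overlapped between the strains. GPP1, the paralog of GPP2, was higher in NCYC3290 (log2 difference 0.41), and GPD2, the isoenzyme linked to redox balance, was not called (220, 312 and 185 CPM in NCYC3290, 245, 278 and 210 CPM in YPS128). Over the list of 16 glycerol genes 1 was higher and 5 lower, with a median of -0.12. Trehalose, a disaccharide that protects proteins, had 5 of 7 genes lower and 0 higher (median -0.56), among them the synthase gene TPS1 with 524, 529 and 586 CPM in NCYC3290 and 856, 971 and 894 CPM in YPS128 (-0.73, adjusted p = 4.5e-06) and the trehalase gene NTH1 (-0.72). Of 11 glycogen genes 2 were lower (18.2%, near the 19% over all genes), led by the glycogen synthase gene GSY1 with 101, 96.5 and 104 CPM in NCYC3290 and 241, 257 and 269 CPM in YPS128 (-1.35, adjusted p = 5.1e-07). Together 7 of 18 trehalose and glycogen genes were lower, 4 without the replicate block.

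Few transcripts of the HOG pathway itself differed. HOG1, the kinase gene, had 236, 271 and 256 CPM in NCYC3290, against 306, 274 and 273 CPM in YPS128 (log2 difference -0.16, SE 0.10, adjusted p = 0.19). Of 28 pathway genes 5 were higher and 2 lower, a smaller share than over all genes, and no difference reached 0.5 in size. Among the called members were the repressor SKO1 (0.49), the phosphorelay gene YPD1 (0.39), the mucin-like sensor MSB2 (-0.41) and the kinase RCK1 (-0.47). The general stress factors MSN2 (206, 338 and 290 CPM in NCYC3290, 257, 271 and 302 CPM in YPS128) and MSN4 (112, 115 and 111 CPM in NCYC3290, 115, 118 and 129 CPM in YPS128) were not called.

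Among sodium and potassium transporters the proton pump was higher in NCYC3290, and the sodium pumps were called lower, though not without the replicate block. ENA1, ENA2 and ENA5 lie in tandem on chromosome IV of the reference and are near-identical (14.8%, 1.4% and 12.2% of their 100-base windows unique). Reads can therefore not be assigned to 1 copy with certainty. In the paper's DNA-seq, ENA1 read depth in both strains was close to that of single-copy genes. The paper takes both strains to carry 1 ENA copy per haploid genome, so the 3 reference genes may share the reads of 1 locus. Their differences can therefore not be read as 3 independent ones. The part of copy number in the differences below was not tested here. ENA1 had 332, 392 and 283 CPM in NCYC3290, against 410, 490 and 389 CPM in YPS128 (log2 difference -0.36, SE 0.09, adjusted p = 0.0036). ENA5 had 258, 359 and 226 CPM in NCYC3290, against 392, 461 and 309 CPM in YPS128 (-0.47, SE 0.09, adjusted p = 0.00026). ENA2 was low, at 4.26, 10.7 and 4.68 CPM in NCYC3290 and 12.8, 16.3 and 8.54 CPM in YPS128 (-0.99, SE 0.23, adjusted p = 0.0016). The ranges of all 3 genes overlapped between the strains, each replicate pair had the lower value in NCYC3290, and none of the 3 was called without the replicate block. NHA1 had 157, 133 and 143 CPM in NCYC3290, against 115, 120 and 104 CPM in YPS128 (0.35, SE 0.10, adjusted p = 0.0084), likewise not called without the block. PMA1 (chromosome VII, 479910 to 482666) had 8878, 9664 and 5017 CPM in NCYC3290, against 5218, 6052 and 3146 CPM in YPS128 (0.70, SE 0.10, adjusted p = 4.3e-06), and its minor isoform PMA2 (0.83) and the regulatory proteolipids PMP1 (0.25) and PMP2 (0.78) were higher too. All 4 proton pump genes of the list were thus higher, although replicate 3 of NCYC3290 had less PMA1 than replicates 1 and 2 of YPS128. PHO89, a sodium/phosphate cotransporter, had 125, 177 and 96.2 CPM in NCYC3290, against 40.7, 50.1 and 36 CPM in YPS128 (1.64, SE 0.22, adjusted p = 0.00013), and the potassium importer TRK1 was higher by 0.41. PRM5, a target gene of cell wall integrity signalling, had 67.4, 82 and 89.4 CPM in NCYC3290, against 129, 99.9 and 120 CPM in YPS128 (-0.56, SE 0.13, adjusted p = 0.0015). Over the 26 genes of sodium and potassium transport 9 were higher and 7 lower, the 3 ENA genes among the lower, against 3 higher and 2 lower without the replicate block.

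Proteasome genes were lower in NCYC3290 by a small and even amount. Of 35 genes tested 24 were lower and 1 higher, with a median log2 difference of -0.37 and medians of -0.37, -0.35 and -0.35 in the replicate pairs. RPT3, which encodes an ATPase of the regulatory particle (chromosome IV, 1261681 to 1262967), is shown with the 250 reference bases before it (chrIV:1261431-1261680, + strand, R64), since they hold the proteasome-associated control element GGTGGCAAA, in capitals, the site of Rpn4.
RPT3: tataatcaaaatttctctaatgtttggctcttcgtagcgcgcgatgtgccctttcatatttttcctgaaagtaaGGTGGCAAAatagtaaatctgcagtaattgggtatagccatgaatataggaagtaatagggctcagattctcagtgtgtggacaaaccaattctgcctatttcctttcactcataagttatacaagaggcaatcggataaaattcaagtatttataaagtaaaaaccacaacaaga
The element was before 27 of the 35 genes (77.1%) and before 1.16% of all promoters, on either strand. Of the 25 called genes 19 had it. RPT3 had 146, 132 and 174 CPM in NCYC3290, against 240, 206 and 270 CPM in YPS128 (-0.66, SE 0.09, adjusted p = 1.4e-06). The lid genes RPN6 (-0.63) and RPN3 (-0.60), the core subunit gene PRE2 (-0.61) and UFD1 (-0.67), which delivers ubiquitinated proteins, were lower by similar amounts, while the small lid subunit gene SEM1 was higher (0.40). RPN4 itself, the transcriptional activator of these genes, had 165, 148 and 194 CPM in NCYC3290, against 187, 177 and 248 CPM in YPS128 (-0.26, SE 0.09, adjusted p = 0.027). The count of lower proteasome genes was 8 without the replicate block, 12 in the fit to all 35 libraries and 23 without replicate 3 of YPS128.

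Ribosome biogenesis genes were lower in NCYC3290 and ribosomal protein genes mostly higher or not called. Of 58 ribosome biogenesis genes 36 were lower and 3 higher in NCYC3290 (median log2 difference -0.39). YTM1, which encodes a factor of large subunit maturation, had 78.2, 103 and 80.3 CPM in NCYC3290, against 232, 237 and 220 CPM in YPS128 (-1.40, SE 0.10, adjusted p = 2.3e-11), with no overlap. Its upstream 250 reference bases (chrXV:832563-832812, + strand, R64) are given as those of the member with the most negative difference, with 3 copies of the PAC core GATGAG, here on the opposite strand as CTCATC, in capitals, of which the neighbouring ones share a base.
YTM1: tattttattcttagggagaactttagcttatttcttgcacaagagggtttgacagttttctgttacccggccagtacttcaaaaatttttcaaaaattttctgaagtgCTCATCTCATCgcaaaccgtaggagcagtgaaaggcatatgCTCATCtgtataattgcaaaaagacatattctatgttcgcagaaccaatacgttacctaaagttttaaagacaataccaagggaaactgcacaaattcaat
This core stood before 55 of the 58 genes (94.8%), before 38 of the 39 called ones and before 16.6% of all promoters. The helicase gene DHR2 (-0.84), the nucleolin homolog NSR1 (-0.84) and the small subunit processome gene UTP13 (-0.72) were lower, while CBF5, the pseudouridine synthase of box H/ACA particles, had 294, 296 and 275 CPM in NCYC3290 and 161, 167 and 176 CPM in YPS128 (0.78, adjusted p = 3e-07). Of the 56 small subunit ribosomal protein genes 25 were higher and 1 lower (median 0.21), and of the 81 large subunit genes 27 were higher and 7 lower (median 0.15). RPS25A had 1195, 933 and 779 CPM in NCYC3290, against 673, 685 and 536 CPM in YPS128 (0.60, SE 0.11, adjusted p = 0.00011), and RPL36B had 85.2, 65.9 and 72.8 CPM in NCYC3290, against 39.9, 42.4 and 37.8 CPM in YPS128 (0.89, SE 0.12, adjusted p = 7.4e-07). RPL4A (-0.43) and RPL4B (-0.47) were lower, but 47.2% of the windows of each of these paralogs are unique. The ribosomal protein calls rested on the pairing and on 1 library: the small subunit count was 1 without the replicate block, 3 with all 35 libraries and 9 without replicate 1 of YPS128, and the large subunit count was 5, 7 and 14. The count of lower ribosome biogenesis genes was 21 without the block, 15 with all 35 libraries and 21 without both libraries of replicate 3.

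**Figure D3:**
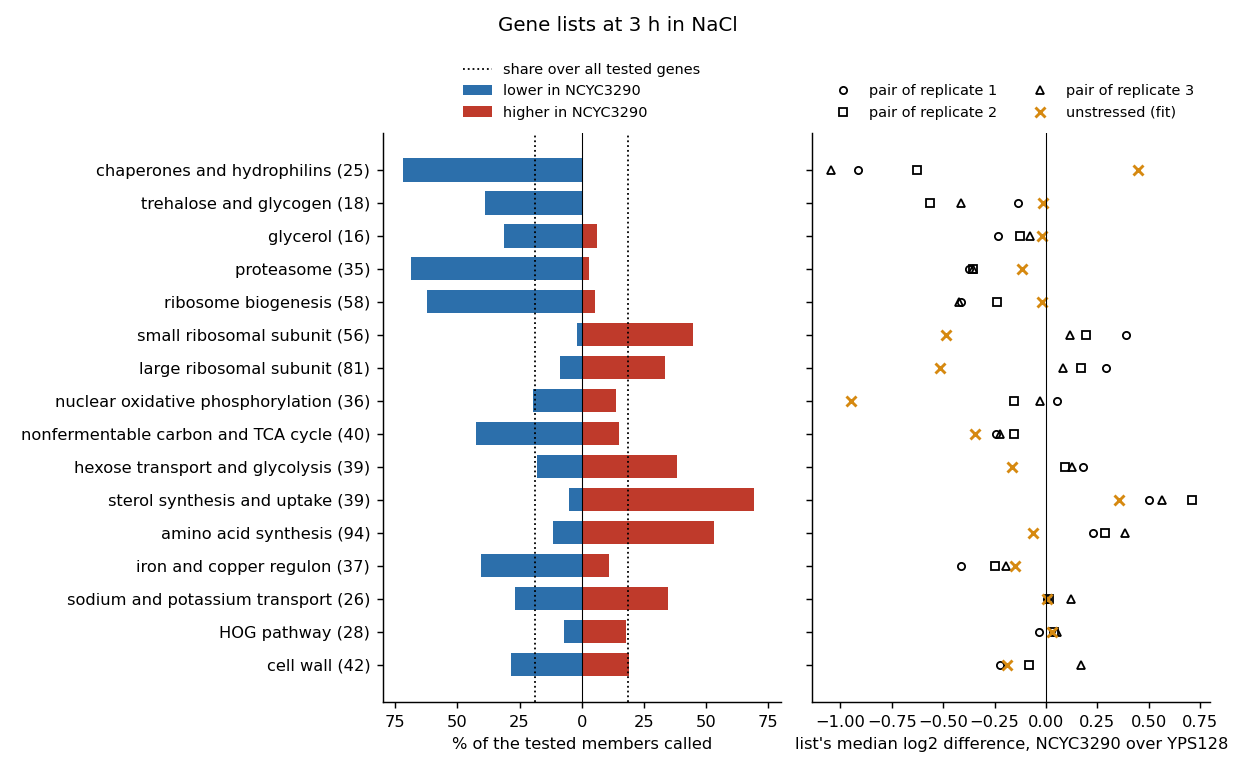
Left, percent of the tested members of each gene list (number in parentheses) called lower (blue) or higher (red) in NCYC3290 at 3 h, with dotted lines at the shares over all genes (19% and 18.4%). Right, the list's median log2 difference in each replicate pair (open symbols) and in the unstressed libraries (cross), where chaperones change sign between the conditions and the ribosomal lists too.

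Sterol genes were higher in NCYC3290. Of 39 genes of sterol synthesis, regulation and uptake 27 were higher and 2 lower (median log2 difference 0.50), and among the 25 synthesis genes 19 were higher and 0 lower (median 0.59). ERG11 (chromosome VIII, 120091 to 121683), the gene of lanosterol demethylase and the target of azole drugs, had 1855, 2359 and 1560 CPM in NCYC3290, against 667, 726 and 523 CPM in YPS128 (1.59, SE 0.10, adjusted p = 1.6e-12). ERG28, which encodes the scaffold of the demethylation complex, had 523, 543 and 366 CPM in NCYC3290, against 155, 172 and 124 CPM in YPS128 (1.65, SE 0.10, adjusted p = 4.5e-13). OLE1, the fatty acid desaturase gene and one of the 5 most abundant genes with a difference of at least 1, had 2325, 3314 and 2127 CPM in NCYC3290, against 904, 1366 and 671 CPM in YPS128 (1.44, SE 0.12, adjusted p = 1e-09). The strains did not overlap in any of these, and ERG5 (1.48) and ERG3 (1.42), of the late pathway, were similar. HMG1, the rate-limiting reductase gene, was higher by 0.74 and the squalene epoxidase gene ERG1 by 0.86. The sterol-sensing activators UPC2 (0.47) and ECM22 (0.63) were also higher, whereas SUT1, a regulator of sterol uptake, had 11, 12.7 and 14.4 CPM in NCYC3290 and 21.5, 20 and 17.6 CPM in YPS128 (-0.64, adjusted p = 0.0067). The summed level of the list was 22900, 28290 and 20060 CPM in NCYC3290 and 13310, 14790 and 11070 CPM in YPS128. Without the replicate block 17 of the genes were higher. The regulatory core TCGTATA read by Upc2 and Ecm22 was before 4 of the 39 genes (10.3%) and 3.9% of all promoters. Among the 29 called genes of the list it was before 2.

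More amino acid synthesis genes were higher than lower in NCYC3290, with lysine synthesis the other way. Of 94 genes 50 were higher and 11 lower, with a median log2 difference of 0.33. The higher genes were 7 of 10 for arginine, 15 of 26 for sulfate assimilation and methionine, 5 of 13 for leucine, isoleucine and valine, and 22 of 36 for histidine, aromatic and other amino acids, against 1 of 9 for lysine. The lower genes were 1 for arginine, 2 for sulfate assimilation and methionine, 3 for leucine, isoleucine and valine, 1 for histidine, aromatic and other amino acids, and 4 for lysine. ASN1 (chromosome XVI, 822620 to 824338), an asparagine synthetase gene, had 1457, 1472 and 1507 CPM in NCYC3290, against 494, 650 and 433 CPM in YPS128 (1.51, SE 0.12, adjusted p = 6.1e-11). SAM2, which encodes an S-adenosylmethionine synthetase, had 377, 308 and 250.5 CPM in NCYC3290, against 98.3, 140 and 80.5 CPM in YPS128 (1.57, SE 0.11, adjusted p = 2.4e-11). STR3, the cystathionine beta-lyase gene, had the most positive difference of the list, with 77.8, 75.4 and 86.2 CPM in NCYC3290 and 12.8, 20.2 and 9.04 CPM in YPS128 (2.57, SE 0.20, adjusted p = 1.6e-08), followed by the S-methylmethionine permease gene MMP1 (2.30) and the methionine synthase gene MET6 (1.37). In each of these every NCYC3290 library lay above every YPS128 library. In lysine synthesis, LYS20, a homocitrate synthase gene (75.6% of windows unique, with the paralog LYS21), had 279, 320 and 222 CPM in NCYC3290, against 858, 897 and 610.5 CPM in YPS128 (-1.53, SE 0.13, adjusted p = 9.4e-10), and LYS9 had 274, 277 and 231 CPM in NCYC3290 and 708, 724 and 561 CPM in YPS128 (-1.35). GCN4, the activator of amino acid synthesis that is controlled mostly in translation, had 1166, 1585 and 1003 CPM in NCYC3290, against 950.3, 1129 and 784 CPM in YPS128 (0.38, SE 0.10, adjusted p = 0.0028), and its core TGACTC was before 40 of the 94 genes (42.6%) and before 6.43% of all promoters. Of the 61 called genes only 23 had this core, so being called did not go with a larger share. The count of higher genes was 26 without the replicate block, 31 with all 35 libraries and 44 without replicate 3 of YPS128.

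More genes of iron uptake were lower than higher in NCYC3290. Of 37 genes of the iron and copper regulon 15 were lower and 4 higher (median log2 difference -0.22), and of its 22 uptake and siderophore genes 10 were lower and 3 higher. The medians of these uptake genes in the replicate pairs were -0.70, -0.10 and -0.16. The lower genes of the regulon include ENB1 and ARN2, which had 0 counts in NCYC3290, where absence of the gene and lack of expression cannot be told apart. FIT2, a mannoprotein gene of the cell wall that retains siderophore iron (chromosome XV, 1059531 to 1059992), is given with its upstream reference sequence (chrXV:1059281-1059530, + strand, R64), because it carries the Aft1 and Aft2 core TGCACCC in both orientations, both in capitals.
FIT2: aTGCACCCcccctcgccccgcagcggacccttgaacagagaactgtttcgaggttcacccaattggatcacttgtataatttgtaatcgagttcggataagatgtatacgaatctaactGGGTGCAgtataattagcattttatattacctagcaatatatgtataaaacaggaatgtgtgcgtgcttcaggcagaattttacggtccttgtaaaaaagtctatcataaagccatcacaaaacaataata
The core was before 12 of 36 genes of the list (33.3%) and 9 of its 19 called genes, against 1.16% of all promoters. FIT2 had 1.83, 1.82 and 2.99 CPM in NCYC3290, against 36, 29.4 and 16.4 CPM in YPS128 (-3.63, SE 0.27, adjusted p = 6.9e-11), and its neighbour FIT3 had 15.8, 26.1 and 14.4 CPM in NCYC3290 and 70.2, 51 and 39.8 CPM in YPS128 (-1.53). SIT1 (chromosome V, 27657 to 29543), a transporter gene for ferrioxamine siderophores, had 70, 90.4 and 73.3 CPM in NCYC3290, against 436, 471 and 295 CPM in YPS128 (-2.34, SE 0.13, adjusted p = 3.3e-13). TIS11, which encodes a protein that destabilises mRNAs of iron-using pathways in iron shortage, had 6.7, 8.86 and 8.42 CPM in NCYC3290, against 35.6, 30.8 and 25.3 CPM in YPS128 (-1.94, SE 0.19, adjusted p = 6.3e-09). The ranges of these genes did not overlap. The high-affinity pair FET3 (-0.79) and FTR1 (-0.58), the heme oxygenase gene HMX1 (-1.02) and LSO1 (-2.53) were lower, while the low-affinity transporter gene FET4 was higher (0.74). AFT1 (68.5, 74.3 and 83.1 CPM in NCYC3290, 78.5, 95 and 94.9 CPM in YPS128) and AFT2 (41.9, 38.2 and 44.2 CPM in NCYC3290, 46.9, 46.9 and 50.5 CPM in YPS128) were not called. Without the replicate block 12 genes of the list were lower, and without replicate 3 of YPS128 16 were.

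In central carbon metabolism genes were called in both directions. ALD6, the cytosolic aldehyde dehydrogenase gene, had 1988, 2461 and 1833 CPM in NCYC3290, against 859.7, 1019 and 744 CPM in YPS128 (1.26, SE 0.10, adjusted p = 6.2e-11), whereas ALD3, another cytosolic aldehyde dehydrogenase gene, had 110, 114.5 and 97.8 CPM in NCYC3290, against 263, 337 and 264 CPM in YPS128 (-1.41, SE 0.14, adjusted p = 1e-07). The acetyl-CoA synthetase gene ACS2 (0.85) and the pyruvate carboxylase gene PYC2 (1.07) were higher as well. ENO1, an enolase gene and also one of those 5 most abundant genes, had 3558, 3288 and 1655 CPM in NCYC3290, against 1109, 1748 and 434 CPM in YPS128 (1.46, SE 0.23, adjusted p = 0.0006), and its ranges overlapped across replicates but not within a pair, so it was not called without the block. CIT1, the mitochondrial citrate synthase gene, had 148, 161.5 and 139 CPM in NCYC3290, against 298, 334 and 298 CPM in YPS128 (-1.06, SE 0.10, adjusted p = 2.5e-09), and the external NADH dehydrogenase gene NDE1 was lower by 0.91 on the log2 scale. Of 20 citrate cycle genes 9 were lower and 1 higher, and of the 20 genes of gluconeogenesis, the glyoxylate cycle and acetate 8 were lower and 5 higher. Of 36 nuclear genes of oxidative phosphorylation 7 were lower and 5 higher (median 0.02), near the shares over all genes. Hexose transport and glycolysis had 15 of 39 genes higher and 7 lower, and 3 higher and 4 lower without the block.

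Transcripts of some cell wall proteins, and of CSS1, which is not on the cell wall list, were much lower in NCYC3290. SED1 (chromosome IV, 600793 to 601809), which encodes a major GPI-anchored wall protein, had 3245, 4107 and 3284 CPM in NCYC3290, against 8328, 10330 and 5595 CPM in YPS128 (-1.15, SE 0.12, adjusted p = 3.6e-08). CSS1 (chromosome IX, 23119 to 26106), a gene of a secreted protein, had 110.5, 177 and 152 CPM in NCYC3290, against 4726, 5627 and 3583 CPM in YPS128, which is 31.3-fold lower in NCYC3290 (-4.97, SE 0.16, adjusted p = 3.8e-17). CWP2, another GPI-anchored mannoprotein gene, had 233, 275.5 and 175 CPM in NCYC3290, against 800.2, 1131 and 520.3 CPM in YPS128 (-1.81, SE 0.13). In each of the 3 genes the NCYC3290 libraries lay below all YPS128 libraries. Of 26 wall protein and synthase genes 8 were lower and 2 higher, while 16 genes of the integrity pathway had 6 higher and 4 lower. The median log2 difference of the 26 genes was only -0.09, with -0.29, -0.11 and 0.15 in the replicate pairs. The adhesion genes AGA1 (18.7, 35.9 and 25.3 CPM in NCYC3290, 79.3, 134 and 89 CPM in YPS128, -1.93) and FLO11 (26.5, 46.1 and 41.7 CPM in NCYC3290, 10.9, 11.2 and 10.2 CPM in YPS128, 1.81) differed in opposite directions. Over the 42 cell wall genes 12 were lower and 8 higher, against 7 lower and 2 higher without the replicate block.

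Some genes had no counts at all in 1 strain. Where each library of the other strain had 10 counts or more, 17 genes were at 0 in all NCYC3290 libraries at 3 h and in all 9 NCYC3290 libraries of the series, and 8 were at 0 in all YPS128 libraries at 3 h and in all 8 of the series. At least 80% of the windows were unique in 12 of the 17 and 4 of the 8. Reads were mapped to the S288c reference, so absence of the gene, a diverged sequence and lack of expression cannot be told apart here. ENB1, a transporter of enterobactin, had 0 counts in each NCYC3290 library and 1412, 1562 and 1040 counts in YPS128, at least 460.1-fold lower against a floor of 3 counts per library. ARN2, another siderophore transporter gene (chromosome VIII, 8351 to 10213), had 0 counts in NCYC3290 and 365, 364 and 350 in YPS128, at least 122.3-fold lower. REE1, MAL11 (a maltose permease gene), CSS3 and the sulfatase gene BDS1 were the other nuclear genes named by the size rule that were at 0 in NCYC3290. In the other direction EMA17 had 169, 117 and 127 counts in NCYC3290 and 0 in YPS128, at least 43.95-fold higher.

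Several of these genes are neighbours at the left end of chromosome XV. From BDS1 (6175 to 8115) to ENB1 (19491 to 21311), BDS1, YOL163W, YOL162W, YOL160W, YOL159C-A, CSS3 and ENB1 had 0 counts in NCYC3290. BDS1 had 172, 216 and 201 counts in YPS128 and CSS3 254, 250 and 269. PAU20, which lies among them, had 11, 9 and 7 counts in NCYC3290 and 3, 0 and 4 in YPS128, but 64.8% of its windows are unique within the large PAU family. YOL164W-A (4130 to 4312), next to BDS1 toward the end of the chromosome, was low, with 0 counts in NCYC3290 and 2, 9 and 16 in YPS128. Beyond these, AAD15, the next toward the end, had 104, 69 and 84 counts in NCYC3290 and 41, 34 and 36 in YPS128. YOL166W-A, still nearer the end, had 0 counts in NCYC3290 and 1, 0 and 3 in YPS128. The next genes inward, IMA2 and HXT11, had 13 to 33 counts in NCYC3290 and 25 to 50 in YPS128, with 67.3% and 54.6% of windows unique.

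**Figure D4:**
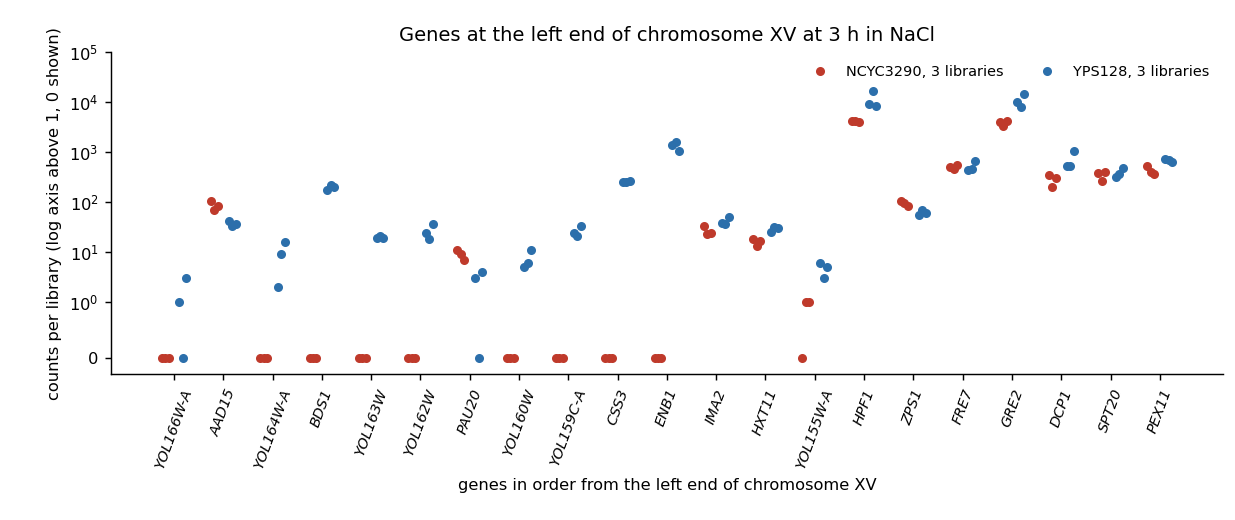
Counts per library at 3 h in NaCl (log axis above 1, with 0 shown) for the genes of the left end of chromosome XV in their order, NCYC3290 on the left and YPS128 on the right of each gene. BDS1, YOL163W, YOL162W, CSS3 and ENB1 are at 0 in all 3 NCYC3290 libraries and counted in all 3 YPS128 libraries.

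Among the largest differences were those in introns of the mitochondrial COX1 gene, which encode maturases and homing endonucleases. AI1 had 6199, 3043 and 2963 counts in NCYC3290 and 0 in YPS128 (at least 1265-fold higher), and AI4 had 934, 522 and 566 counts in NCYC3290 and 0 in YPS128 (at least 211.8-fold higher). AI2 had 0 counts in NCYC3290 and 6081, 6917 and 5366 in YPS128 (at least 2091-fold lower), and AI5_BETA had 0 in NCYC3290 and 325, 416 and 189 in YPS128 (at least 107.5-fold lower). AI3 was called higher in NCYC3290 with a log2 difference of 5.51. All of these lie within the annotated COX1, AI1 to AI4 from its first base on, and how reads over shared stretches were assigned is not given. COX1 itself was not called, at 736, 840.3 and 511 CPM in NCYC3290 and 728, 796 and 661 CPM in YPS128. COX3, another subunit gene of cytochrome oxidase in the mitochondrial genome, had 103, 90.8 and 51.3 CPM in NCYC3290, against 299, 326 and 239 CPM in YPS128 (-1.86, SE 0.11, adjusted p = 1.9e-13). Of 18 genes of the mitochondrial genome tested 4 were higher and 9 lower, against 4 lower without the block, and they made up 0.248 to 0.353% of the counts in NCYC3290 and 0.380 to 0.428% in YPS128. The libraries were made from total RNA with rRNA depletion.

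The other genes of the size rule that were higher in NCYC3290 were counted in both strains. UIP3, a nuclear envelope protein gene, had 65.9, 54.7 and 47.3 CPM in NCYC3290, against 6.18, 6.28 and 5.02 CPM in YPS128 (3.25, SE 0.15, adjusted p = 2.1e-15). IMD2, the inosine monophosphate dehydrogenase gene of guanine nucleotide synthesis, had 175, 205 and 172 CPM in NCYC3290, against 28.8, 21 and 22.8 CPM in YPS128 (2.93, SE 0.14). OPT2, an oligopeptide transporter gene, had 133, 155 and 111 CPM in NCYC3290, against 22.2, 17.7 and 19.2 CPM in YPS128 (2.73, SE 0.14). All 3 were without overlap. ANB1, the hypoxic isoform of the translation factor eIF5A, was low, with 12.9, 13.4 and 20.2 CPM in NCYC3290, against 1.49, 3.34 and 2.18 CPM in YPS128 (2.71, SE 0.27, adjusted p = 9.3e-09).

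Marker genes of other cell states were detected in both strains. The haploid-specific and mating pheromone genes summed to 381 to 516 CPM in NCYC3290 and 417 to 534 CPM in YPS128, with 3 of 16 tested higher and 1 lower, near or below the shares over all genes. Unstressed, on the other scale, they summed to 98.8 to 120 CPM in NCYC3290 and 59.2 to 72.8 CPM in YPS128. The pheromone genes MFA1 and MFA2 were at a few CPM and MF(ALPHA)1 at or near 0 in both strains, while much of the sum was FAR1, a cell cycle inhibitor gene, with 173, 229 and 148 CPM in NCYC3290, against 274, 326 and 202 CPM in YPS128 (-0.54). FAR1 was the 1 gene called lower, and the 3 called higher were STE6 (0.56), STE4 (0.55) and SAG1 (0.30). The sums at 3 h therefore do not show the direction of the other members. The meiosis and sporulation genes summed to 332 to 393 CPM in NCYC3290 and 441 to 493 CPM in YPS128, and 7 of 17 were lower and 0 higher. DIT1, a spore wall gene, had 19.6, 22.5 and 17.8 CPM in NCYC3290, against 59.7, 51.6 and 58.9 CPM in YPS128 (-1.52, adjusted p = 1.8e-09), and the meiotic kinase gene IME2 was lower by 0.59 on the log2 scale. The part of such cells in the differences above was not tested.

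Whether the differences were there before salt was asked with the unstressed libraries of the same strains. Across 5895 genes the difference at 3 h and the unstressed difference correlated at r = 0.73 as a description, over genes that are not independent. Of the 2203 genes called at 3 h, 571 were called with the same sign and 171 with the opposite sign among the 1553 genes called unstressed. Of the 338 with a difference of at least 1, 183 were called unstressed with the same sign. The change of the difference, that is the difference at 3 h minus the unstressed one, was called for 1219 of 5948 genes (20.5%), 638 (10.7%) positive and 581 (9.77%) negative. Scaling by library totals in place of TMM moved the median of all genes in this contrast by -0.22, and the called genes were then 346 positive and 1143 negative, so that changes are relative to the TMM scale. Without the replicate block 364 genes were called.

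The chaperones were among the lists whose difference changed sign: their median was -0.92 at 3 h, against 0.45 unstressed, and the change was negative in 15 of 25 genes and positive in 1. HSP82 had 206 CPM in NCYC3290 and 73.1 CPM in YPS128 on average without salt (log2 difference 1.40), and its change was -2.73 (adjusted p = 0.00014). GPP2 had 41.6 CPM in NCYC3290 and 24.9 CPM in YPS128 unstressed (0.74), and its change was -1.98 (adjusted p = 0.00029). For SSA4 the unstressed levels were 15.8 CPM in NCYC3290 and 15.1 CPM in YPS128, and the change was -1.72. In contrast GPD1 was lower in NCYC3290 already before salt (87.9 CPM in NCYC3290 and 166 CPM in YPS128, -0.90), and its change of -0.12 was not called (adjusted p = 0.75). The sterol genes were likewise higher before salt (median 0.35), with 13 positive and 5 negative changes among 39, against 0 and 2 without the replicate block and 4 and 3 with all 35 libraries, and ERG11 had a change of 0.91 (adjusted p = 5.3e-05). ASN1 (unstressed -0.14) and PMA1 (unstressed 0.08) were not called before salt, and their changes were 1.63 and 0.61. SIT1 was at 142 CPM in NCYC3290 and 158 CPM in YPS128 unstressed, and its change of -2.24 was called (adjusted p = 0.0029), whereas FIT2 was already at 0.75 CPM in NCYC3290 and 40.1 CPM in YPS128.

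Ribosomal protein and respiration genes were lower in NCYC3290 without salt and mostly not at 3 h. At 3 h the medians were 0.21 for the small and 0.15 for the large ribosomal subunit, against -0.49 and -0.51 unstressed, and the change was positive in 46 of 56 and 57 of 81 genes and negative in 0. The small subunit genes summed to 36480 to 49880 CPM in NCYC3290 and 34510 to 41110 CPM in YPS128 at 3 h. Unstressed, on the other scale, they summed to 96400 to 119800 CPM in NCYC3290 and 126600 to 172500 CPM in YPS128. The nuclear genes of oxidative phosphorylation had a median of 0.02 at 3 h, against -0.95 unstressed, and 30 of 36 changes were positive, including all 13 ATP synthase genes. Under library totals these counts were 42 for the small subunit and 24 for oxidative phosphorylation, and without the replicate block 15 and 22. For chaperones the negative changes were 17 under library totals and 11 without the block. The negative changes were 9 of 35 for proteasome genes, against 19 under library totals and 1 without the block, and 16 of 58 for ribosome biogenesis genes, against 31 and 3.

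**Figure D5:**
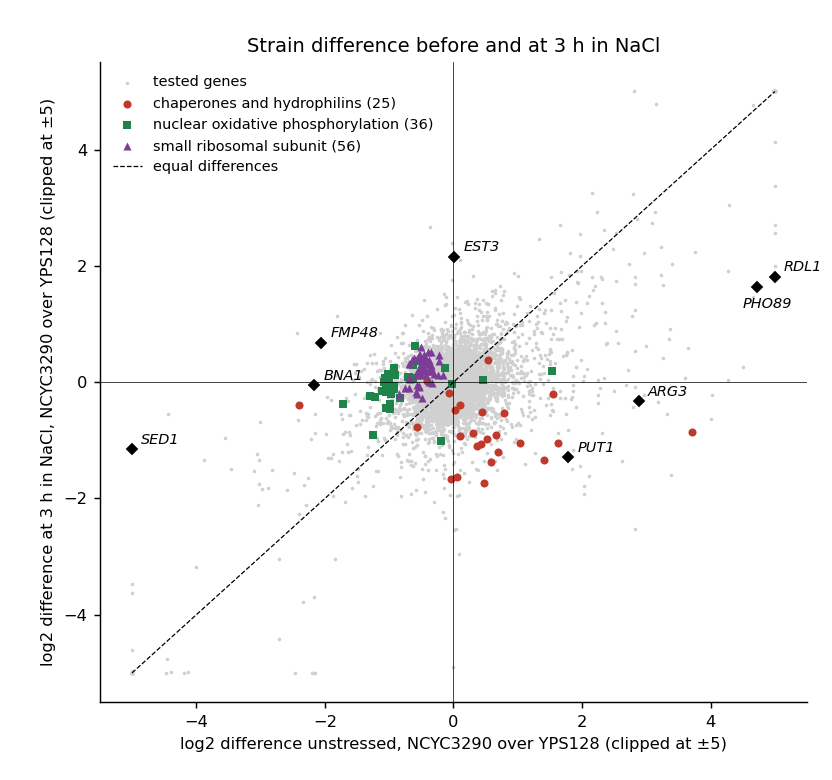
Log2 difference in level at 3 h in NaCl against that in unstressed cells (NCYC3290 over YPS128, drawn at ±5 where larger), 1 point per gene, with the line of equal differences dashed. Most chaperones (red) lie below the line, oxidative phosphorylation (green) and small ribosomal subunit genes (purple) mostly above it, and the 8 genes with the largest called changes are named.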

How the data were processed

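RNA was measured by RNA-seq of rRNA-depleted total RNA. The deposited values are raw counts per gene, which the authors made with Trimmomatic, bwa-mem (S288c reference R64-1-1) and HT-Seq. How HT-Seq treated strand and reads of several loci is not given in the sources used here, so overlapping, antisense and near-identical genes are uncertain. Reads that diverge from S288c can be lost in mapping.

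Tests used edgeR 4.0.16 in R 4.3.3, with DESeq2 1.42.0 as an alternative. The 3 h comparison was fitted to the 12 libraries of the 4 strains at 3 h after filterByExpr and TMM, by strain and replicate number in a robust quasi-likelihood model (biological coefficient of variation 8.99%). The change of the difference was fitted to the 24 unstressed and 3 h libraries (10.2%), with the replicate number as the block and not the culture. The pairing comes from the Methods, by which the strains of a replicate were cultured side by side. Deviations of same-numbered NCYC3290 and YPS128 libraries from their strain means correlated at 0.0908, 0.355 and 0.551, and over all strains 17 of 18 such pairs were over 0.1. P-values measure the spread between these cultures. The labels list NaCl for the unstressed libraries too, but the growth protocol places their collection before the salt. The fits were tested on simulated data, and floors cover counting error only.

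The comparison and the 30 gene lists were chosen with earlier results of these data known. RPP1, an RNase P subunit gene, was taken off the large ribosomal subunit list after its members were seen. The rule named the 8 largest positive and 8 largest negative differences (at least 50 counts in each library of the higher strain, a standard name, at least 80% of 100-base windows unique, the same sign in 3 pairs), the 5 most abundant genes with an absolute log2 difference of at least 1, the 4 largest changes in each direction, 9 salt genes, and up to 4 called members per list. Other list members, such as regulators and genes that were not called, were picked after their values were seen. Names and coordinates are from the R64 annotation, which matched 6025 of 6717 IDs. Unmatched IDs held 0.117% of the counts. Alternatives were other scalings, filters, tests, blocks and sample sets, and each replicate left out.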

Additional observations from a re-analysis of the deposited data

Results flagged for a closer look

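The difference between NCYC3290 and YPS128 at 3 h departed from the unstressed difference for 1219 genes, by a test of the change itself in edgeR's quasi-likelihood model. The 4 largest called changes in each direction among genes that meet the naming rule are given with levels averaged over 3 libraries of each strain before salt. CPM before salt and at 3 h are on different scales, so they compare the strains within a time and not the times. SED1 was at 43.3 CPM in NCYC3290 and 1474 CPM in YPS128 before salt, and the log2 difference changed by 3.86 (adjusted p = 7.2e-12), so that the strains were closer in salt. FMP48, a mitochondrial protein kinase gene, had 32.6, 19.8 and 24.3 CPM in NCYC3290 and 13.9, 18.6 and 16.4 CPM in YPS128 at 3 h, against 1.67 CPM in NCYC3290 and 6.61 CPM in YPS128 before, a change of 2.73 (adjusted p = 0.0038).

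EST3, which encodes a telomerase subunit, had 338, 422 and 392 CPM in NCYC3290 and 84.4, 72 and 101 CPM in YPS128 at 3 h, against 12.9 CPM in NCYC3290 and 13.3 CPM in YPS128 before, a change of 2.12 (adjusted p = 6.1e-07). Its ranges did not overlap at 3 h, and before salt the difference was 0.01 (adjusted p = 0.98). BNA1, an enzyme gene of NAD synthesis, had 27.5, 15.2 and 23.8 CPM in NCYC3290 and 23, 25.9 and 21.1 CPM in YPS128 at 3 h, against 0.985 CPM in NCYC3290 and 4.56 CPM in YPS128 before, a change of 2.09 (adjusted p = 0.00099).

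In the other direction RDL1, a thiosulfate sulfurtransferase gene, changed by -3.53 (adjusted p = 5e-14). It had 235.5, 258 and 194 CPM in NCYC3290 and 63.1, 69.3 and 61.3 CPM in YPS128 at 3 h, against 217 CPM in NCYC3290 and 5.52 CPM in YPS128 before. ARG3, the ornithine carbamoyltransferase gene, had 179, 219 and 205 CPM in NCYC3290 and 287, 234 and 234.5 CPM in YPS128 at 3 h, against 15 CPM in NCYC3290 and 2 CPM in YPS128 before, a change of -3.24 (adjusted p = 2.7e-05). PHO89 was at 198 CPM in NCYC3290 and 6.78 CPM in YPS128 before salt and changed by -3.10 (adjusted p = 1.1e-05). PUT1, the proline oxidase gene, had 8.68, 11.4 and 13.1 CPM in NCYC3290 and 26.6, 23.9 and 29.5 CPM in YPS128 at 3 h, against 10.4 CPM in NCYC3290 and 2.82 CPM in YPS128 before, a change of -3.09 (adjusted p = 4.9e-07).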

How the results depend on the processing

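The 2203 calls at 3 h became 948 (421 higher, 527 lower) with no replicate block, so that the pairing carried many of the small differences, 1065 (481 and 584) in a fit to all 35 libraries, and 338 (162 and 176) with a minimum absolute log2 difference of 1. Leaving out a replicate number or a single library gave 1456 to 2135 genes (721 to 1065 higher, 735 to 1070 lower). DESeq2 called 1954 genes, edgeR's likelihood ratio test 2319, and other scalings and filters 2030 to 2262. The 1219 calls of the change were 364 (171 positive, 193 negative) with no replicate block, 492 (252 and 240) with all 35 libraries, 325 (136 and 189) with a minimum of 1, and 666 to 1043 (383 to 530 positive, 283 to 513 negative) with a replicate number or replicate 3 of YPS128 left out. With library totals in place of TMM they were 346 positive and 1143 negative. With each culture as a block, which pairs its unstressed and 3 h libraries, 994 of the 1219 calls remained.

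Of the named genes' calls, 37 were lost with no replicate block and 29 with all 35 libraries. BNA1, not called at 3 h, ranged between -0.27 and 0.25 with libraries left out, and was 0.25 without replicate 2, 0.18 without NCYC3290 replicate 2 and 0.08 without YPS128 replicate 2, and no other named gene changed sign. Genes near the floor of 3 counts per library are limited by depth, and near-identical genes by mapping.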

Other observations

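In proline breakdown, PUT1 (-1.28), PUT2 (-0.84) and the proline permease gene PUT4 (-0.98) were lower in NCYC3290 at 3 h on the log2 scale, whereas the allantoin genes DAL1 (0.47), DAL2 (0.85), DAL4 (0.66) and DAL7 (0.77) were higher, within a nitrogen list with 9 of 25 genes higher and 4 lower. The count of higher genes was 3 without replicate 3. In calcium handling, 5 of 15 genes were higher and 3 lower. PMC1, the vacuolar calcium pump gene, had 393, 316 and 322 CPM in NCYC3290, against 160, 189.5 and 167 CPM in YPS128 (0.99, SE 0.12, adjusted p = 2.1e-07 by edgeR's quasi-likelihood test), and the Golgi pump gene PMR1 was higher by 0.61. The calcineurin regulators RCN1 (-0.54) and RCN2 (-0.55) were lower, and the factor CRZ1 was not called (74.4, 73.4 and 87.6 CPM in NCYC3290, 73.3, 79.5 and 91.2 CPM in YPS128).

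Of 22 thiamine and vitamin B6 genes 10 were higher and 3 lower. The thiamine transporter gene THI7 had 195, 226 and 139 CPM in NCYC3290, against 50.3, 58.9 and 39.8 CPM in YPS128 (1.90, SE 0.12, adjusted p = 9.3e-13), and SNZ3 had 45.7, 51.3 and 51.6 CPM in NCYC3290, against 2.77, 2.94 and 2.68 CPM in YPS128 (4.14), with 36.8% of its windows unique among the SNZ paralogs. In oxidative defence 7 of 26 genes were higher, among them the thioredoxin gene TRX2 (0.46) and the glutathione transferase genes GTT1 (0.46) and GTT2 (0.50), and 5 lower, with the mitochondrial peroxiredoxin gene PRX1 (164.5, 185 and 183 CPM in NCYC3290, 334, 318 and 396 CPM in YPS128, -0.98) and the catalase genes CTA1 (-0.83) and CTT1 (-0.67) among the lower ones. DCP1, which encodes an mRNA decapping subunit, had 53.4, 46.1 and 55.8 CPM in NCYC3290, against 113, 104 and 176 CPM in YPS128 (-1.32), in a list of P-body and stress granule genes with 2 of 25 higher and 5 lower. Phosphate genes (8 of 28 higher, 6 lower), zinc genes (6 of 13 higher, 2 lower), translation factors (3 of 21 higher, 5 lower), cell cycle and histone genes (2 of 29 higher, 5 lower), flocculins (2 of 8 higher, 3 lower) and aquaporins (1 of 3 higher, 2 lower) were called in both directions. Over all genes 18.4% were higher and 19% lower. The shares were near or below these for translation factors (14.3% higher, 23.8% lower), cell cycle and histone genes (6.9%, 17.2%) and P-body and stress granule genes (8%, 20%). Without the replicate block the higher genes were 4 for nitrogen, 2 for calcium, 1 for oxidative defence, 4 for phosphate and 1 for zinc.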
